A study of Mus musculus with 7 samples.

Results

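Open chromatin near 9 genes of the Hippo pathway and its TEAD transcription factors was compared between Dll1+ and Dll1- mouse mammary tumor cells. The genes were Tead1, Tead2, Tead3, Tead4, Yap1, Wwtr1, Lats1, Lats2 and Amotl2. A region was taken when its midpoint lay nearer to the transcription start site (TSS) of one of these genes than to that of any other protein-coding gene, which gave 109 of 119215 regions. The nearest TSS is an address and does not show which gene a region acts on.

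The data are from ATAC-seq, in which a transposase cuts and tags accessible DNA. Tumors arose in MMTV-PyMT mice, whose MMTV promoter drives the polyoma middle T oncogene in the mammary epithelium, and which carried a BAC-based mCherry reporter of the Notch ligand Dll1 on a C57BL/6 background. Cells negative for CD45, CD31 and Ter119 were sorted as mCherry+ (Dll1+, 3 samples) or mCherry- (Dll1-, 4 samples) from 4 tumors, 3 of which gave both populations. Both groups therefore carried the same transgenes and differed in the reporter, and the sources used here give no age. The deposited peaks came as 1 pooled list per group, of 132872 summits (Dll1+) and 148923 summits (Dll1-). There are thus no replicate values, and no test between the groups was possible. Intervals below cover counting error only, and since the reads carry no molecular identifiers they are not independent molecules.

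The Hippo pathway is a kinase cascade that restrains growth. LATS kinases phosphorylate the coactivators YAP (Yap1) and TAZ (Wwtr1), which keeps them out of the nucleus, and unphosphorylated YAP and TAZ bind TEAD factors, which supply the contact with DNA. In mammary cells the pathway responds to cell density, stiffness and polarity, and TEAD-bound enhancers often also carry sites for AP-1.

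Every one of the 9 genes had a region in at least 1 list. The commonest state was a region called in both lists, with 80 of 109 (73.4%, Wilson 95% interval 64.4 to 80.8) beside 66.4% of all regions. Promoters of the 4 pathway genes Yap1, Wwtr1, Lats1 and Amotl2 and of Tead1, Tead3 and Tead4 were accessible in both populations, and the single Tead2 region, its promoter, was called in the Dll1- list only. Of all 13951 promoter regions called in either list, 85.1% were in both, 11.5% in the Dll1- list only and 3.43% in the Dll1+ list only, so 1 Dll1- only promoter among these genes is near the background. Differences in strength were mostly small. By rank they were largest at Amotl2, Tead1 and Wwtr1, whose distal regions differed in both directions. These genes had the most regions of the 9, and so the most room for large differences. By reads, the balance of directions changed with the scaling described below. In sorted bulk cells, a region open in fewer cells and one less open in every cell cannot be told apart.

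Sequences are shown first for the intronic and intergenic regions with a TEAD core match centered within 20 bp of the strongest summit, for those with a TEAD and an AP-1 match, and for the region with the highest fold enrichment of all 109. Each line gives the reference sequence (RefSeq genome, GRCm38, plus strand) 70 bp either side of the summit. Capitals mark the TEAD core GGAATG, or CATTCC on the other strand, and the AP-1 sequence TGAGTCA, or TGACTCA on the other strand. Distances are from the start of the gene record.
Tead1, 16.2 kb upstream of the gene start, chr7:112663388-112663528: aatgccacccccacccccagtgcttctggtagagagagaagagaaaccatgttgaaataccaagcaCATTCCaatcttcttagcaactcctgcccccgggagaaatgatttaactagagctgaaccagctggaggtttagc
Tead1, 21.0 kb downstream of the gene start, chr7:112700218-112700358: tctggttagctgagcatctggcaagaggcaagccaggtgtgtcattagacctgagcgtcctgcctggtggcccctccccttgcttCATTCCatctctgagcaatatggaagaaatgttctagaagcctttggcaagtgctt
Tead1, 41.2 kb downstream of the gene start, chr7:112720223-112720363: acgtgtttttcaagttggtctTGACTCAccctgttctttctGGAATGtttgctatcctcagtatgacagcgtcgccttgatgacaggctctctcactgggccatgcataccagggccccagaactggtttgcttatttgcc
Tead1, 51.1 kb downstream of the gene start, chr7:112730360-112730500: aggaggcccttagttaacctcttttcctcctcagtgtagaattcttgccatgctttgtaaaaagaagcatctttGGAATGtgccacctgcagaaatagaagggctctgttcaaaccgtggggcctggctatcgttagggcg
Lats2, 2.19 kb upstream of the gene start, chr14:57760537-57760677: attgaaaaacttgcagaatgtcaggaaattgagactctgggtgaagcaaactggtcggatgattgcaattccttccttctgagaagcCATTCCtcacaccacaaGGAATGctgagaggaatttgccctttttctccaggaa
Lats2, 21.8 kb downstream of the gene start, chr14:57736673-57736813: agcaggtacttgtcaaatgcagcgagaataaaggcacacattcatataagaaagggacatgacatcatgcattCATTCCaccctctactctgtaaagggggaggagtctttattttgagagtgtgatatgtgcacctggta
Lats2, 33.8 kb downstream of the gene start, chr14:57724499-57724639: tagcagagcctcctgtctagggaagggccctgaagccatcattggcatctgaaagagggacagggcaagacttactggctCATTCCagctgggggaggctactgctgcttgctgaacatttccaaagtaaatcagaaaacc
Amotl2, 43.1 kb upstream of the gene start, chr9:102673498-102673638: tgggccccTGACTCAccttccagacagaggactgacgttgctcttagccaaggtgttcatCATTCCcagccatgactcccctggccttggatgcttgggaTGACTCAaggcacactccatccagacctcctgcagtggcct
Amotl2, 6.9 kb upstream of the gene start, chr9:102709612-102709752: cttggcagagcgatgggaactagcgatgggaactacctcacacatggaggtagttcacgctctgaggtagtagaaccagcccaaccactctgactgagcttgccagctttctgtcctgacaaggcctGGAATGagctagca
Amotl2, 17.6 kb downstream of the gene start, chr9:102734158-102734298: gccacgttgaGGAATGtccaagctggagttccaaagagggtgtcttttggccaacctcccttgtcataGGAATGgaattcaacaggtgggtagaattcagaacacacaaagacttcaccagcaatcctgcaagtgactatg
The first 3 Tead1 windows, the Lats2 windows 21.8 and 33.8 kb downstream and the Amotl2 windows 6.9 kb upstream and 17.6 kb downstream belong to regions called in both lists. The Tead1 window 51.1 kb downstream is from a Dll1+ only region. The Lats2 window 2.19 kb upstream and the Amotl2 window 43.1 kb upstream are from Dll1- only regions. In the Tead1 window 16.2 kb upstream the core starts 4 bp from the summit, and in the Lats2 window 21.8 kb downstream it starts 3 bp from it. Only the Tead1 window 41.2 kb downstream and the Amotl2 window 43.1 kb upstream hold both motifs, and these are the only 2 such windows among the 109 also when 100 bp either side are searched. No letters show that a factor was bound.

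Counts by gene were uneven. Tead1 had 29 regions and Amotl2 had 25, more than 97.6% and 96.6% of protein-coding genes, whose median was 3. Wwtr1 had 18, Tead4 15, Yap1 10, Lats2 8 and Tead3 2. Lats1 and Tead2 had 1 each, while 20.6% of protein-coding genes had none. By the midpoint, 72 of the 109 regions (66.1%) lay in introns, 21 (19.3%) between genes, 12 (11.0%) in promoters (from 1000 bp before to 100 bp after a TSS of any annotated gene, non-coding ones included), 2 in a 5′ UTR and 2 in non-coding exons. Over all regions, introns held 46.9%, intergenic DNA 34.7% and promoters 11.7%. A total of 70 regions lay inside the gene they were assigned to and 16 inside another gene, of which 9 were Tead1 regions in 2310014F06Rik, upstream of it.

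**Figure D1:**
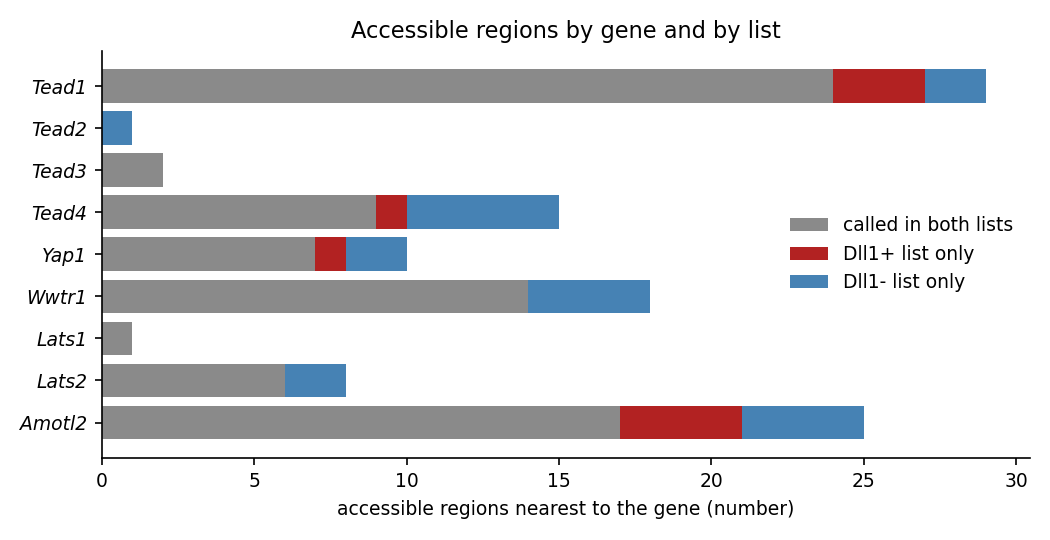
Number of accessible regions nearest to each of the 9 genes (horizontal axis), split into shared regions (grey), Dll1+ only regions (red) and Dll1- only regions (blue). Tead1 (29) and Amotl2 (25) had the most regions, Tead2 and Lats1 had 1 each, and the Tead2 region was called in the Dll1- list only.

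Of the 29 regions called in a single list, 9 were Dll1+ only (8.26% of 109) and 20 were Dll1- only (18.3%). Across all regions these shares were 9.01% and 24.6%. The Dll1+ share of single-list regions was 31.0% (Wilson 95% interval 17.3 to 49.2), and 26.8% over all regions, which lies inside that interval. Single-list regions were weak: the median percentile of fold enrichment within their own list was 30.4 for the Dll1+ only regions (range 10.5 to 41.4) and 29.2 for the Dll1- only regions (range 12.7 to 61.9). Over all single-list regions the medians were 29.4 and 32.6. The Dll1- list was deeper, with a genome-wide background of 7.20 reads against 3.74. Matching the depth of the lists left the counts at 9 and 20, but it starts from summits already called in the deeper list. The part of depth in the single-list regions was otherwise not tested.

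Markers of other cell types were read beside these counts. Promoters of 7 of 8 epithelial markers were called in both lists, with a summed fold enrichment of 64.9 in Dll1+ and 65.3 in Dll1-. Of 8 fibroblast marker promoters, Dll1+ cells had 1 called and Dll1- cells 5 (summed fold enrichment 8.30 and 22.5), and their regions were 32 in both lists, 2 Dll1+ only and 32 Dll1- only. Over all promoter regions called, 11.5% were Dll1- only and 3.43% Dll1+ only. The promoters of Col3a1, Dcn and Lum, and those of the defining immune and endothelial markers Ptprc and Pecam1, were called in neither list, although 11 of 17 Ptprc regions were shared. The 1 shared fibroblast promoter, Col1a1, had folds of 8.30 in Dll1+ and 6.46 in Dll1-, and the shared fibroblast regions had a median rank difference of 1.31 points. For immune markers (1 of 8) and endothelial markers (1 of 6) the promoter counts were the same in both lists. For basal markers the promoter count was 1 of 4 in each list and for erythroid markers 2 of 4. Immune marker regions were 17 in both lists, 2 Dll1+ only and 11 Dll1- only, and endothelial ones 42, 6 and 19. Basal marker regions were 26, 7 and 15, epithelial ones 124, 12 and 24, and erythroid ones 9, 0 and 0. Of all regions 9.01% were Dll1+ only and 24.6% Dll1- only. These shares were 3.03% and 48.5% for fibroblast, 6.67% and 36.7% for immune and 8.96% and 28.4% for endothelial markers. They were 14.6% and 31.2% for basal and 7.5% and 15% for epithelial markers. The part of fibroblast or immune cells in the Dll1- only regions described here was not tested.

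For each region, strength was taken as the fold enrichment at its strongest summit, which is (reads + 1) / (background reads + 1), and as its percentile among all summits of the same list. Whole reads were recovered from the fold and p-value, and read ratios were scaled by 1.63, the median Dll1- to Dll1+ ratio over all shared regions. Scaling by the genome-wide backgrounds instead raises every Dll1+ to Dll1- ratio 1.18-fold (0.24 on the log2 scale).

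Over the 80 shared regions the Dll1+ minus Dll1- percentile had a median of -2.17 points (95% order-statistic interval -4.91 to -0.76). All 79153 shared regions had a median of -1.67. The Dll1+ rank was the higher one in 29 regions and the Dll1- rank in 51, so 36.2% were higher in Dll1+ beside 41.0% of all. A difference of 20 points or more was seen in 2 of 80 regions toward Dll1+ (2.5%, beside 6.39% of all shared regions) and in 2 of 80 toward Dll1- (2.5%, beside 11.1%). By scaled reads, 5 regions (6.25%) were at least 1.5-fold higher in Dll1+ and 6 (7.5%) in Dll1-, beside 12.5% and 12.3%. The shared regions were fairly strong, with median percentiles of 74.5 in Dll1+ and 77.0 in Dll1- beside 67.3 and 70.7 for all shared regions. There were 10 regions (12.5%) above percentile 90 of both lists, beside 13.7%.

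**Figure D2:**
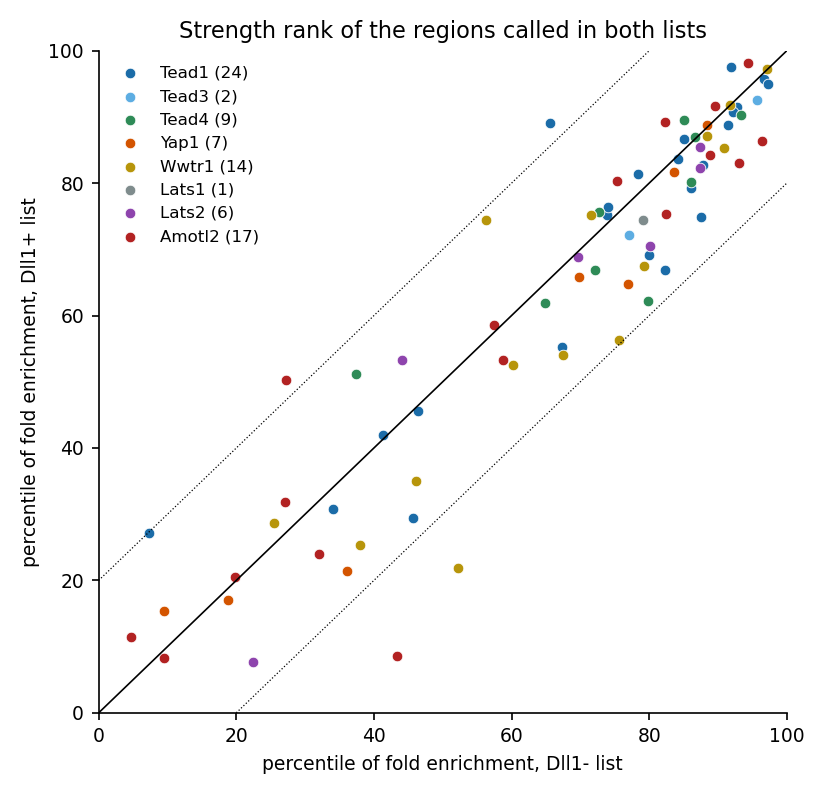
Percentile of fold enrichment in the Dll1- list (horizontal axis) and in the Dll1+ list (vertical axis) for the 80 shared regions, 1 point each, colored by gene with the number of regions in parentheses. The solid line marks equal rank and the dotted lines a difference of 20 points, outside which lie 2 regions on each side.

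TEAD factors are the DNA-binding partners of YAP and TAZ. Tead1 (chr7:112679318-112906807, plus strand) is broadly expressed and had the richest locus, with 24 shared, 3 Dll1+ only and 2 Dll1- only regions. Its promoter region (chr7:112678299-112680174) had 159 reads on a background of 13.5 in Dll1+ and 300 on 24.1 in Dll1-. That is a fold enrichment of 11.0 (percentile 82.7) and 12.0 (percentile 87.8). Scaled reads were 0.864 times those of Dll1- (95% interval 0.708 to 1.05), so no difference was detectable at this depth.

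Tead1 held the shared region that ranked highest in Dll1+ relative to Dll1- among the 80. It lies 75.4 kb upstream (chr7:112603608-112604305), outside any gene, with 62 reads in Dll1+ and 54 in the deeper Dll1- list. Fold enrichment was 13.3 and 6.71, a rank difference of 23.5 points and a scaled ratio of 1.87 (interval 1.28 to 2.75). The region was picked for its rank, which rests on the same reads, so the interval does not allow for that choice. Second within Tead1 was a weak intronic region 147 kb downstream, at 19.8 points (3.85 against 2.34), although its reads ratio was 1.13 (interval 0.708 to 1.79). The lowest within Tead1 was a region 53.1 kb upstream, at -16.3 points (fold enrichment 4.01 and 4.63, 18 and 37 reads).

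Of the 5 Tead1 regions above percentile 90 in both lists, 1 ranked higher in Dll1+ and 4 in Dll1-. Those 4 had differences of -2.37 to -1.01 points, beside a median of -1.67 over all shared regions. The region 16.2 kb upstream, whose summit sequence is shown above, had the highest Dll1+ fold of the locus at 19.2 (percentile 97.6) against 14.0 in Dll1- (percentile 91.9), with 117 and 161 reads and a ratio of 1.18 whose interval (0.925 to 1.51) includes 1, though not under the genome-wide backgrounds (1.09 to 1.79). The region 144 kb downstream had the highest Dll1- fold, 18.5 against 16.6, with 150 reads in Dll1+ and 392 in Dll1-. There the scaled ratio was 0.624 (interval 0.513 to 0.755) while the rank differed by -2.37 points, with a local background of 20.3 reads in Dll1- against 8.10. At 41.2 kb downstream, the window with both a TEAD core and an AP-1 match, 235 and 514 reads gave a ratio of 0.745 (interval 0.636 to 0.871). At 21.0 kb downstream 178 and 427 reads gave 0.679 (interval 0.567 to 0.811). The interval lay below 1 in 6 of the 24 shared regions and above 1 in 1, but scaled by the genome-wide backgrounds it lay below in 2 (21.0 and 144 kb downstream) and above in 7, so the balance at Tead1 turns with the scaling.

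The strongest Dll1+ only region of Tead1 was intronic, 51.1 kb downstream (chr7:112730322-112730546), with 22 reads on the genome-wide background, a fold of 4.85 and percentile 41.4. The strongest Dll1- only region, 65.8 kb downstream (chr7:112744930-112745211), had 50 reads, a fold of 6.22 and percentile 61.9, the highest of the 20 Dll1- only regions. It holds an AP-1 match and no TEAD core, whereas the Dll1+ only region holds a TEAD core 4 bp from its summit and no AP-1 match.

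Tead2 (chr7:45215753-45233644, plus strand), a TEAD factor of early embryos and progenitors, was the opposite of Tead1. Its single region, at the promoter (chr7:45215668-45215902), was called in the Dll1- list only, with 58 reads on a background of 17.0. The fold was 3.28, percentile 23.3 of that list.

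Tead3 (chr17:28331671-28350817, minus strand), a TEAD factor prominent in placenta, had 2 regions, both shared. The promoter region had 120 reads in Dll1+ and 199 in Dll1-, with folds of 8.58 and 8.75 and a scaled ratio of 0.983 (interval 0.777 to 1.24). An intronic region 9.66 kb downstream was stronger, with folds of 15.1 and 16.8 (percentiles 92.6 and 95.7) and 176 and 348 reads. Its ratio was 0.824, with an interval (0.684 to 0.991) just below 1, which included 1 when scaled by the genome-wide backgrounds (0.808 to 1.17).

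Tead4 (chr6:128224288-128300823, minus strand), known for its role in trophectoderm, had 9 shared regions, 1 Dll1+ only and 5 Dll1- only. The promoter region (chr6:128300320-128301030), whose midpoint falls in the 5′ UTR, had 276 and 357 reads on high local backgrounds of 38.9 and 53.3. Folds were 6.94 and 6.60 and percentiles 61.9 and 64.9. The scaled ratio of 1.26 (interval 1.07 to 1.48) was the only one of 8 shared promoter ratios whose interval excluded 1, but scaled by the genome-wide backgrounds those of Lats1, Lats2 and Amotl2 also lay above 1. The Tead4 promoter rank was 3.03 points lower in Dll1+ than in Dll1-, although its fold and scaled reads were higher in Dll1+. Over all promoter regions called in both lists the median rank difference was -1.84 points.

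Tead4 introns held a region 18.4 kb downstream with 187 and 427 reads, a ratio of 0.714 (interval 0.598 to 0.849) and a TEAD core. Scaled by the genome-wide backgrounds that interval reached 1 (0.706 to 1.00). Another intronic region with a TEAD core, 4.08 kb downstream, went the other way, with 315 and 432 reads and a ratio of 1.19 (interval 1.02 to 1.38). Of the 9 shared Tead4 regions, 3 intervals lay above 1 and 2 below, or 3 and 0 with the genome-wide backgrounds. The region 66.5 kb downstream was among the 5 lowest by rank in Dll1+, at -17.6 points (folds 6.97 and 9.40, 32 and 83 reads). The region 45.3 kb downstream was among the 5 highest at 13.8 points (folds 5.70 and 4.05, 26 and 34 reads). The Dll1+ only region 9.33 kb downstream was weak, with a fold of 2.81 and percentile 10.5. The strongest Dll1- only region, 54.5 kb downstream, had 46 reads and a fold of 5.11 (percentile 51.2). Equal numbers of summits in both lists left the Tead4 counts at 9, 1 and 5.

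**Figure D3:**
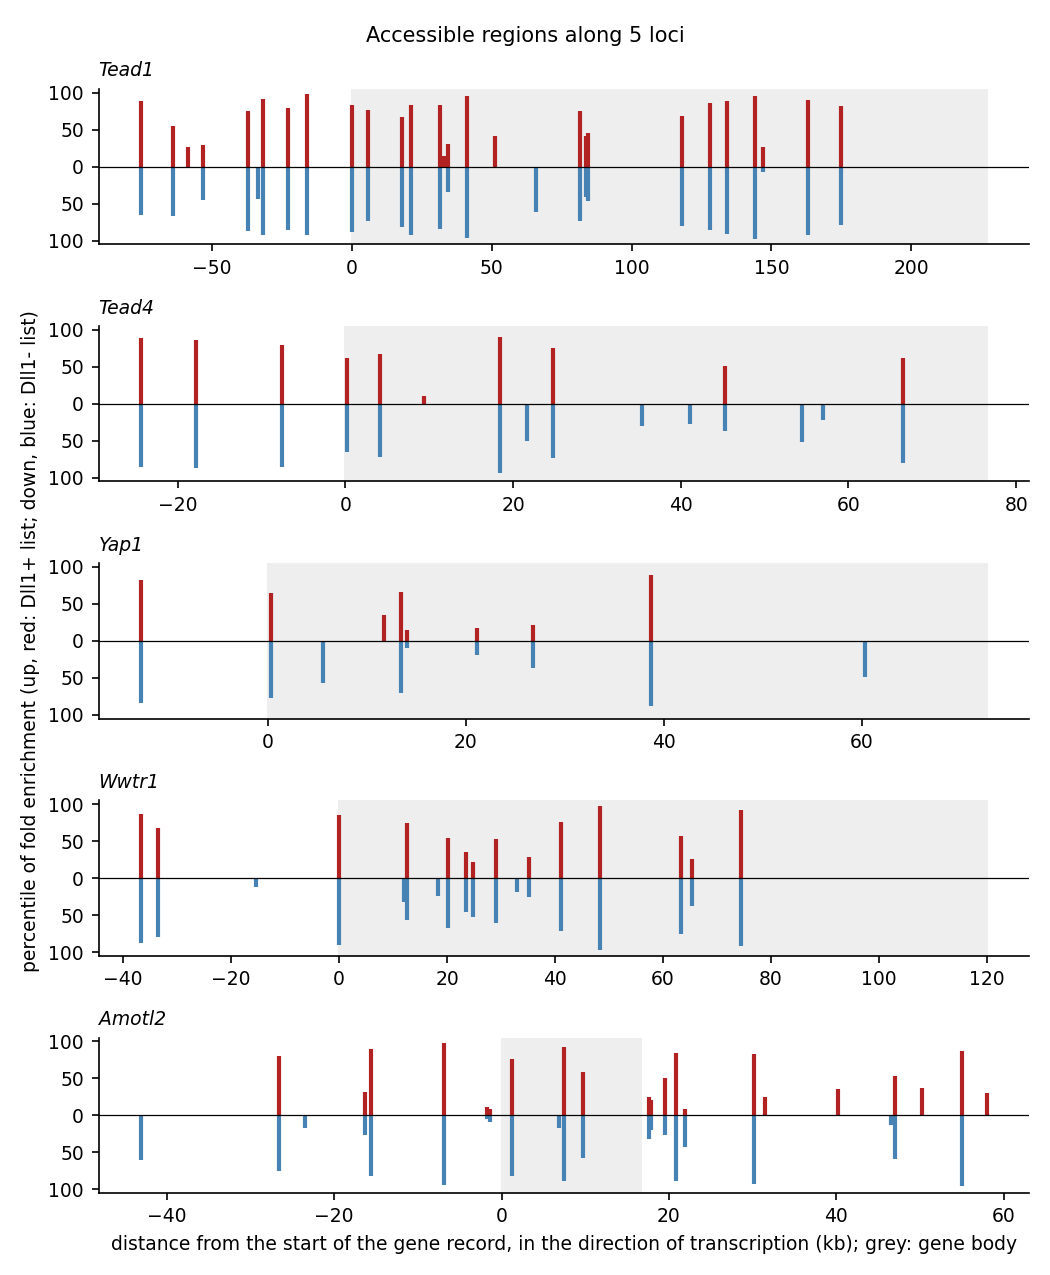
Regions along Tead1, Tead4, Yap1, Wwtr1 and Amotl2 by distance from the start of the gene record in kb (horizontal axis), with the percentile of fold enrichment drawn upward in red for the Dll1+ list and downward in blue for the Dll1- list, and the gene body in grey. Lines on 1 side only are regions called in a single list, which are shorter than most shared ones: none is above percentile 61.9.

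YAP and TAZ are the coactivators that LATS kinases hold back. Yap1 (chr9:7931999-8004596, minus strand) had 7 shared regions, 1 Dll1+ only and 2 Dll1- only. Its promoter region (chr9:8003307-8005194) ranked 12.2 points lower in Dll1+, the widest gap among the shared promoters, with folds of 7.34 and 8.71. Reads were 158 and 263, a scaled ratio of 0.979 (interval 0.799 to 1.20), so the reads did not show the gap. The strongest Yap1 region was internal, 38.7 kb downstream at the start of the non-coding Gm20416, with folds of 13.1 and 12.2 and 106 and 140 reads. None of the 7 intervals excluded 1, but with the genome-wide backgrounds that of the 38.7 kb region lay above 1 (1.12 to 1.89). The Dll1+ only region 11.7 kb downstream had 30 reads and a fold of 4.39 (percentile 34.7). The strongest Dll1- only region, 5.58 kb downstream, had 115 reads on a background of 19.3, a fold of 5.73 (percentile 57.5) and an AP-1 match.

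Wwtr1 (chr3:57455649-57575910, minus strand) encodes TAZ. It had 14 shared regions, 4 Dll1- only and no Dll1+ only. The promoter region (chr3:57575082-57576721) was the strongest of the shared promoters, with 259 and 438 reads and folds of 11.9 (percentile 85.3) and 13.4 (percentile 90.9). The scaled ratio was 0.964 (interval 0.823 to 1.13). The region 48.4 kb downstream, inside the gene at the annotated pseudogene Gm16016, was stronger still in both lists, with folds of 18.8 and 18.3, percentiles of 97.3 and 97.2, and 165 and 214 reads. Its ratio was 1.26 (interval 1.02 to 1.55, or 1.20 to 1.83 with the genome-wide backgrounds).

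Wwtr1 introns gave 2 of the 5 regions with the largest rank differences toward Dll1-. At 24.9 kb downstream (chr3:57550757-57551201) folds were 3.57 and 5.17 and reads 33 and 86, a difference of -30.3 points and a ratio of 0.625 (interval 0.405 to 0.944), and it holds a TEAD core. Its interval included 1 when scaled by the genome-wide backgrounds (0.479 to 1.12). At 63.4 kb the difference was -19.3 points (6.25 and 8.42). The region 12.6 kb downstream (chr3:57563119-57563495) went the other way, 18.2 points higher in Dll1+, with folds of 9.04 and 5.60, 46 and 45 reads and a ratio of 1.67 (interval 1.08 to 2.57). Next to it, 12.1 kb downstream, lay the strongest Dll1- only region of the gene, with 30 reads, a fold of 3.78 (percentile 32.2) and an AP-1 match. The Wwtr1 median rank difference, -6.68 points, was the lowest among the genes with shared regions.

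LATS kinases are the inhibitory arm. Lats1 (chr10:7681214-7716460, plus strand) had its promoter region alone, shared, with 125 and 175 reads and folds of 9.04 and 9.23. The ratio was 1.16 (interval 0.918 to 1.47, or 1.08 to 1.74 with the genome-wide backgrounds). Lats2 (chr14:57689662-57758388, minus strand) had 6 shared regions and 2 Dll1- only, with no region within 1000 bp of the start of its gene record. Its basic transcripts start further in, where they share a promoter with Gm49361, and that region (chr14:57745359-57746684) is assigned to Gm49361 by distance. It was looked at after the values were seen, and had 147 and 215 reads, folds of 10.1 and 10.5 and a ratio of 1.11 (interval 0.897 to 1.38).

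The measures differed at Lats2: scaled reads were higher in Dll1+ in 5 of the 6 shared regions, while 5 of the 6 ranked higher in Dll1- (median rank difference -3.51 points). The strongest, 53.1 kb downstream (chr14:57704994-57705513), had 291 and 355 reads, folds of 12.0 and 11.9 and a ratio of 1.34 (interval 1.14 to 1.56), and it holds a TEAD core. The region 56.3 kb downstream had 145 and 165 reads and a ratio of 1.43 (interval 1.14 to 1.80). Both had rank differences within 2 points, -1.97 and -0.91, beside a median of -1.67 over all shared regions. Their local backgrounds were 23.4 and 17.3 reads in Dll1+, which is 6.26 and 4.63 times the genome-wide one. In Dll1- they were 29.0 and 21.7 reads, or 4.03 and 3.01 times it. The strongest Dll1- only region, 28.4 kb downstream, had 37 reads, a fold of 4.08 (percentile 37.7) and an AP-1 match. With 1 TSS per gene, 1 region stays with Lats2, the Dll1- only one upstream of its gene record, so the account of this gene rests on its shorter transcripts.

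Amotl2, an angiomotin-family scaffold, binds YAP and TAZ, promotes LATS activity and is itself a YAP/TAZ target. It lies at chr9:102716672-102733418 on the plus strand, and its regions numbered 17 shared, 4 Dll1+ only and 4 Dll1- only. The promoter region (chr9:102717114-102718629) starts 442 bp from the start of the gene record. It had 266 reads on 28.0 and 425 on 41.0, folds of 9.20 and 10.1 (percentiles 75.3 and 82.5) and a ratio of 1.02 (interval 0.872 to 1.19).

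The highest fold of all 109 regions was 6.9 kb upstream of Amotl2 (chr9:102709499-102710050), 20.2 in Dll1+ (percentile 98.2) and 15.6 in Dll1- (percentile 94.3). Reads were 151 and 184, a ratio of 1.34 (interval 1.07 to 1.67). From 26.6 kb upstream to the end of the gene, all 9 shared regions had scaled ratios above 1, from 1.02 to 1.56 with a median of 1.41, and 5 intervals lay above 1. Downstream of the gene 3 of 8 ratios were above 1, the median was 0.94, and 3 intervals lay below 1 and 1 above. Scaled by the genome-wide backgrounds, 5 of 8 downstream ratios were above 1, with a median of 1.11 and 2 intervals on each side, so the downstream direction turns, while all 9 upstream and gene-body intervals then lay above 1. This split at the end of the gene was made after the values were seen, and neighboring regions share a locus.

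Neighboring Amotl2 regions 19.5 and 21.9 kb downstream had opposite ranks. The first (chr9:102735923-102736401) had 137 and 134 reads and folds of 5.62 and 3.48, 23.0 points higher in Dll1+, with a ratio of 1.67 (interval 1.30 to 2.13) and a TEAD core. The second (chr9:102738440-102738775) had 62 and 167 reads and folds of 2.69 and 4.47. Its -34.7 points were the largest rank difference among the 80, with a ratio of 0.605 (interval 0.445 to 0.814) and an AP-1 match. Between them, 20.8 kb downstream, a stronger region had folds of 11.5 and 12.4 and a ratio of 0.943 (interval 0.809 to 1.10). Both differing regions sat on a high local background, of 22.4 to 23.5 reads in Dll1+ and 36.6 to 37.8 in Dll1-.

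All 4 Dll1+ only regions of Amotl2 lay downstream of the gene, between 31.5 and 58 kb from its start. The strongest, 50.3 kb downstream (chr9:102766813-102767075), had 26 reads, a fold of 4.48 (percentile 36.6) and a TEAD core. The strongest Dll1- only region was 43.1 kb upstream (chr9:102673331-102673748), with 49 reads, a fold of 6.10 (percentile 60.9), and the TEAD core and 2 AP-1 matches shown above.

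**Figure D4:**
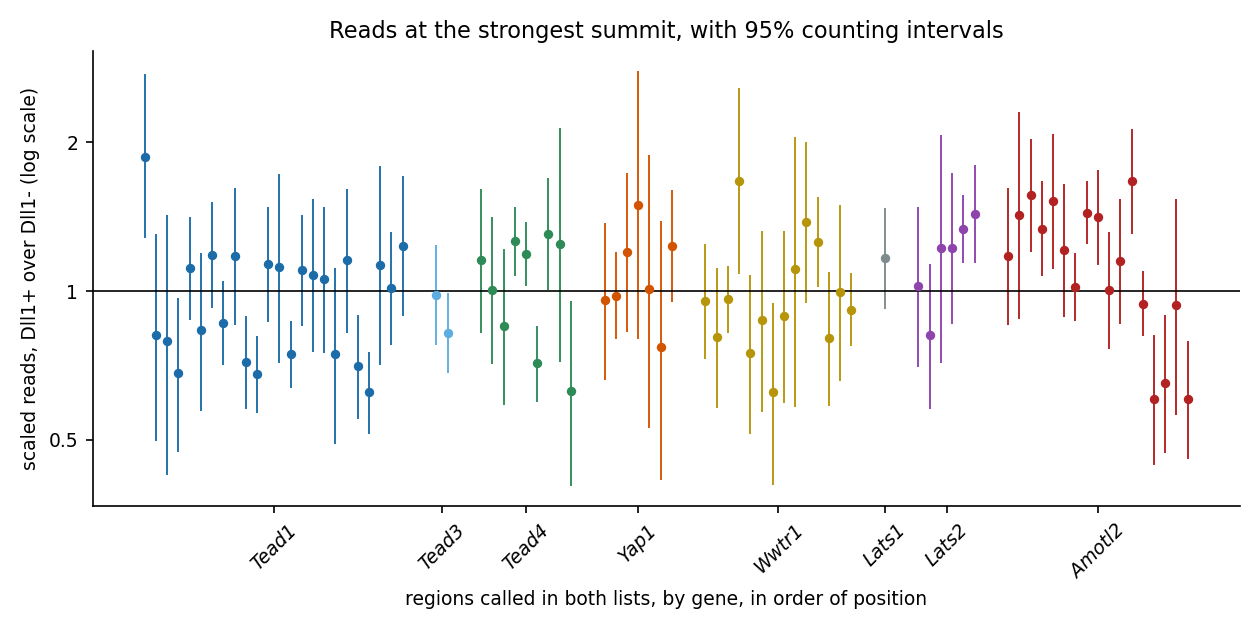
Scaled Dll1+ to Dll1- ratio of reads at the strongest summit (vertical axis, log scale) for the 80 shared regions, grouped by gene and ordered along it from upstream to downstream, with exact 95% counting intervals. The line marks equal scaled reads. Intervals lie above 1 in 14 regions, 6 of them at Amotl2, and below 1 in 13, 6 of them at Tead1. Scaled by the genome-wide backgrounds they would lie above in 29 (11 at Amotl2, 7 at Tead1) and below in 4 (2 at each).

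By counting error alone, 14 of 80 intervals (17.5%) lay above 1 and 13 (16.2%) below, beside 16.4% and 15.8% of all shared regions. The shares near these genes were thus close to the background. With the reads scaled by the genome-wide backgrounds, 29 (36.2%) lay above and 4 (5%) below, beside 31.5% and 6.96% of all shared regions. Under that scaling 72.5% of the ratios exceeded 1, beside 69.8% of all shared regions.

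TEAD core matches within 100 bp of the strongest summit were found in 28 of the 109 regions (25.7%, Wilson 95% interval 18.4 to 34.6), beside 14.8% of windows of the same length over all regions. The share was 21 of 80 in shared regions (26.2% beside 14.5%). It was 5 of 9 in Dll1+ only regions (55.6%, interval 26.7 to 81.1, beside 17.0%) and 2 of 20 in Dll1- only regions (10%, interval 2.79 to 30.1, beside 15.0%). Tead1 had 9 regions with a core, Amotl2 7, Tead4 4, Lats2 4, Wwtr1 2, Tead3 1 and Yap1 1, and the Lats1 and Tead2 windows held none. The longer sequence TGGAATG was in 14 regions (12.8% beside 5.19%). Regions of a gene share a locus, so the intervals treat as independent what may not be.

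AP-1 (Fos and Jun dimers) matches were in 21 regions (19.3% beside 18.1%). They were in 8 of 20 Dll1- only regions (40.0%, interval 21.9 to 61.3, beside 30.4%), in 13 of 80 shared regions (16.2% beside 15.4%) and in 0 of 9 Dll1+ only regions (Wilson upper limit 29.9%), beside 4.40%. The RBPJ sequence GTGGGAA, the site of the Notch effector, was in 8 regions (7.34%, interval 3.77 to 13.8, beside 4.30%). One of these was the Tead2 promoter. No TEAD, AP-1 or RBPJ matches overlapped each other in these windows.

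**Figure D5:**
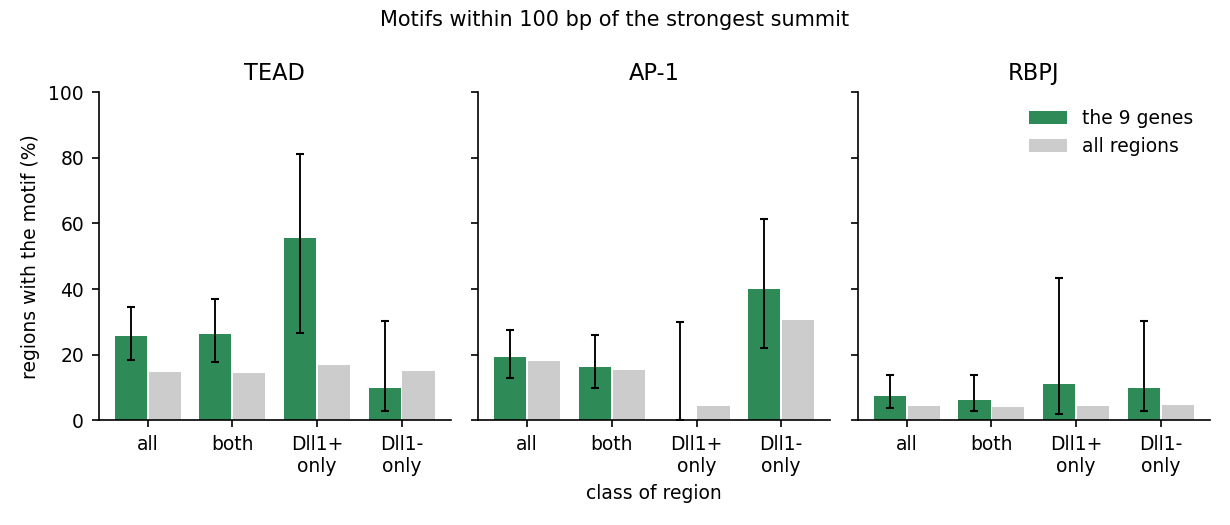
Percent of regions with a TEAD, AP-1 or RBPJ match within 100 bp of the strongest summit (vertical axis), by class of region, for the 9 genes (green, with Wilson 95% intervals) and for all regions (grey). For TEAD the 9-gene share is 25.7% beside 14.8%. In the Dll1+ only class 5 of 9 regions hold a core, beside 17.0% of all regions of that class. An AP-1 match is in 0 of these 9, beside 4.40% of all.

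Other genes of the pathway were counted by role. The 16 core and upstream genes, such as Nf2, Sav1 and the MST kinases, had 195 regions, of which 128 were shared, 24 Dll1+ only and 43 Dll1- only. Their Dll1+ share of single-list regions was 35.8% (interval 25.4 to 47.8, which holds the 26.8% of all regions), with 12.3% of their regions Dll1+ only and 22.1% Dll1- only beside 9.01% and 24.6% of all. Their median rank difference was -1.81 points, with 8 shared regions (6.25%) at 20 points or more toward Dll1+ and 11 (8.59%) toward Dll1-, beside 6.39% and 11.1% of all shared regions. The largest excess was at Frmd6, a FERM-domain activator of the kinases, with 3 Dll1+ only and 10 Dll1- only of 32 regions (9.38% and 31.2%, beside 9.01% and 24.6% of all regions). The 9 partners and cofactors had 100 regions (65, 11 and 24) and a median of -2.78 points, with 6 regions (9.23%) toward Dll1+ and 14 (21.5%) toward Dll1-. Their single-list shares, 11% and 24%, stood beside 9.01% and 24.6% of all regions. Among them Amotl1, a paralog of Amotl2, had 1 Dll1+ only and 7 Dll1- only of 17 regions, and Limd1, an inhibitor of LATS, had 0 and 5 of 10. Vgll4, a TEAD cofactor, had 5 and 4 of 33, and Amot, another angiomotin, 3 and 4 of 13. Vgll1 had no region.

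The 20 YAP/TAZ target genes had 403 regions, of which 272 were shared, 35 Dll1+ only and 96 Dll1- only. The Dll1+ share was 26.7% (interval 19.9 to 34.9) beside 26.8% over all regions, and the median rank difference was -2.43 points. The largest excesses toward Dll1- were at Rbms3 (5 Dll1+ only and 18 Dll1- only of 49 regions), Asap1 (2 and 11 of 36) and Ccn2 (1 and 10 of 32), and toward Dll1+ at Ankrd1 (2 and 0 of 8) and Nt5e (5 and 3 of 29). The Dll1- only shares of the first 3 were 36.7%, 30.6% and 31.2% beside 24.6% of all regions, and genes with many regions have the most room for an excess. Target promoters were called for 16 genes in Dll1+ and 19 in Dll1-, to be read beside the 11.5% of all promoter regions that were Dll1- only. The other 3 were Axl (fold 5.34), Ccdc80 (4.45) and Igfbp3 (2.71), picked out after their values were seen. They sat beside the fibroblast marker promoters, 1 of 8 in Dll1+ and 5 of 8 in Dll1-, and the part of such cells was not tested. The classic targets Ccn2, Ccn1 and Ankrd1, chosen in the same way, had shared promoters. Folds were 6.74 in Dll1+ and 5.34 in Dll1- for Ccn2, 4.24 and 5.78 for Ccn1, and 5.31 and 8.16 for Ankrd1. The first fold was higher in Dll1+ and the other two in Dll1-.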

How the data were processed

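Peaks were called by the authors with the pipeline of the ENCODE project, group by group, and 1 list of optimal peaks per group was deposited. The submitters' processing notes name mm10 and GRCm38, and the aligner and its settings are not given in the sources used here. Per peak the deposited values are the fold enrichment at the summit (a ratio over local background), the −log10 p-value, a −log10 q-value, a score and a summit offset, of which the score and q-value were not used further. Overlapping or touching peaks of both lists were merged, and each midpoint was assigned to the nearest TSS of a protein-coding gene (GENCODE M21 basic, all transcripts). Reads and background were recovered from fold and p under a Poisson model, for all Dll1+ summits and all but 1 Dll1- summit (whole within 0.05 reads). Intervals of ratios are exact (Clopper-Pearson), those of shares are Wilson, all at 95%. Python 3.11.15, numpy 2.4.6, pandas 2.3.3, scipy 1.17.1 and samtools 1.23.1 were used, and the code was tested on simulated data. The median summit held 43 reads in Dll1+ and 61 in Dll1-, which sets the width of the intervals. The 9 genes, the other lists and the motifs were chosen with earlier results of these data known. Single regions named are each gene's promoter region and its strongest region in either list alone, and the 5 shared regions with the largest rank difference in each direction. Others were added after their values were seen. Read intervals of regions picked by rank use the same reads and do not allow for that choice.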

Additional observations from a re-analysis of the deposited data

How the results depend on the processing

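No paired analysis was possible because each list pools its samples, although 3 tumors gave both populations, and for the same reason no sample could be left out. The median rank difference (-2.17, interval -4.91 to -0.76) stayed negative in each alternative run, but its interval spanned 0 with equal numbers of summits (-0.38, -2.14 to 1.78), strength from the p-value (-1.47, -3.44 to 0.54) and without Tead1 (-3.05, -5.28 to 0.03). Over all shared regions the first and second of these gave 0.26 and -1.90. Among regions instead of summits it was -4.13 (all: -3.66). With the stricter threshold (summits at or above the median fold of their list) it was -5.71 (all: -2.33), and 3 Dll1+ only and 6 Dll1- only regions were left (Dll1+ share over all regions 31.0%). Leaving out each gene in turn gave -3.05 to -1.90. Requiring single-list regions to exceed the median fold left 0 Dll1+ only and 5 Dll1- only regions, a share of 0% (interval 0 to 43.4), beside 20.2% over all regions. Depth matching, the summit rule, 1 TSS per gene, a limit of 50 kb and, added after seeing the data, the Lats2 start region changed none of the counts over the 9 genes together by over 1.5 times, although 1 TSS per gene left Lats2 with 0 shared and 1 Dll1- only region in place of 6 and 2. Depth matching starts from summits already called in the deeper list. The TEAD share was 15.6% (8.43% over all regions) within 50 bp and 12.8% (5.19%) for the longer sequence. The median log2 reads ratio of 0.03 became 0.27 when scaled by the genome-wide backgrounds, also added later. Fewer summits enter under the stricter thresholds, a shorter window or longer sequence can only lower a motif share, and the cause of the change in rank difference was not tested. Depth limits the weak regions most: 22 and 24 reads 14.1 kb downstream of the Yap1 start gave a ratio of 1.49 with an interval of 0.799 to 2.78.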
